A study of Mus musculus with 4 samples.

Results

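The 7 genes Ebf1, Ebf2, Ebf3, Foxc1, Foxc2, Prrx1 and Nr2f2 encode transcription factors of bone and marrow stroma. They were taken by name from 27998 genes counted in single mouse stromal cells. No measured value set the choice, but it was made with earlier results of these data known. All 7 passed the filter on low counts that left 12374 genes for testing. The cells were sorted as CD45-TER119-CD31-CD140a+CD51+ from crushed, collagenase-treated femora and tibiae of C57BL/6 mice, and their transcripts were counted as unique molecular identifiers (UMIs) in droplets. There were 4 libraries, 1 for each group. NHD13Tg mice carry the Nup98-HoxD13 fusion transgene, a model of myelodysplastic syndrome (MDS), and their wild-type counterpart is the library WT_A1. Abcg2-MDS/AML is the library of the study's Abcg2 model of MDS and acute myeloid leukaemia, and its wild-type counterpart is the library Control. The promoter that drives either model, the ages and sexes, and the number of mice behind each library are not stated in the labels.

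Levels were compared between 5 kinds of cell, each set by a sum of marker UMIs per 10000 UMIs of the cell. MSC-gate cells held at least 10 of Adipoq, Lepr and Esm1, genes of the reticular, fat-primed stroma of marrow, and numbered 1902 in NHD13Tg, 694 in WT_A1, 189 in Abcg2-MDS/AML and 431 in Control. Osteoblast-gate cells held at least 100 of Bglap and Bglap2, chondrocyte-gate cells at least 15 of Col9a1, Col9a2 and Col9a3, fibroblast-gate cells at least 8 of Dpt, Clec3b and Col14a1, and tendon-gate cells at least 30 of Thbs4 and Myoc. A cell past more than 1 gate was counted in each. Levels are given as counts per 1000000 UMIs (CPM), the UMIs of a gene summed over all cells of a gate in a library over the total of those cells. They are compared between cells for 1 gene at a time, not between genes.

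Early B-cell factors, the EBF family, bind DNA through a zinc-containing domain and also carry a helix-loop-helix. Ebf1 is best known for specifying B lymphocytes, Ebf2 marks precursors of fat and smooth muscle-related stroma, and Ebf3 together with Ebf1 is known in mice to maintain the Cxcl12-abundant reticular cells that house blood stem cells. Foxc1 and Foxc2 are forkhead factors of mesoderm: Foxc1 is required in mice for the same reticular niche and for the skull and eye, and Foxc2 for lymphatic valves and the axial skeleton. Prrx1 is a paired-related homeobox factor of limb-bud mesenchyme and its skeletal progeny. Nr2f2, also called COUP-TFII, is an orphan nuclear receptor of veins and of mesenchyme.

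The 250 bases before the start of Ebf3 and of Foxc1 are shown because these members set MSC-gate cells apart from fibroblast- and tendon-gate cells in all 4 libraries. They are printed 5′ to 3′ on the strand of the gene, from RefSeq on GRCm38.p6, with each CG dinucleotide in capitals. The build on which the authors counted reads is not given in the sources used here, so these positions are RefSeq's.
Ebf3 (chr7:137314446-137314695, minus strand): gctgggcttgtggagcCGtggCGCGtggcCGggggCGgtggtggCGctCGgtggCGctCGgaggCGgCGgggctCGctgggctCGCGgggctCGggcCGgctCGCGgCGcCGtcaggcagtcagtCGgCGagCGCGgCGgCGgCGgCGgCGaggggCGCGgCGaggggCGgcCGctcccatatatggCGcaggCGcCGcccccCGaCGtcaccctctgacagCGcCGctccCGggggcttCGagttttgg
Foxc1 (chr13:31806396-31806645, plus strand): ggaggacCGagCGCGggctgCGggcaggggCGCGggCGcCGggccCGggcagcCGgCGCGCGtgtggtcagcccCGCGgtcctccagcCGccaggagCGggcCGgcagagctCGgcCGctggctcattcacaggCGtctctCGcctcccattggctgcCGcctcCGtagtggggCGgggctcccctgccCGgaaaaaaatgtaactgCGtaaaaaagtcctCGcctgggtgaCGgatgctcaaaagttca
The stretch before Ebf3 held 43 CG dinucleotides and that before Foxc1 held 29, against a median of 6 over 32851 RefSeq promoter stretches of the same length. Of all these stretches, 99.3% held fewer than that of Ebf3 and 93.2% fewer than that of Foxc1. The 2 stretches before Ebf1 held 9 and 14, that before Prrx1 held 4 and that before Nr2f2 held 1, which 7.87% of all stretches undercut. RefSeq's promoter table matched 5 of the 7 members, leaving Ebf2 and Foxc2 without a sequence here. An EBF palindrome (TCCC and GGGA with any 2 bases between them) was found in 0.904% of all promoter windows and a forkhead core (TGTTTA) in 13.4%, both strands read over 250 bases before and 50 after the start. Neither was found in the 6 windows of members or in the 12 windows of niche genes, which cover 12 of the 18 listed. Of the MSC-gate genes, Esm1 had 1 forkhead core, at -99 from the start, and the windows of Adipoq and Lepr had neither motif.

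Each library held 36133716 to 46033790 UMIs and 4973 to 5766 cells past the quality limits of at least 2000 UMIs, at least 500 genes and at most 10% mitochondrial UMIs, with median UMIs per cell of 4186 to 5452. Pairs of libraries shared 6 to 14 cell barcodes, against 3.78 to 4.74 given by the sizes of the lists. In each gate, the independent markers of its own type summed higher than in the other gates, in every library where the gate held at least 20 cells. The MSC gate of Abcg2-MDS/AML stood apart from the other 3: there, 7 reticular markers (Cxcl12, Kitl, Hp, Gas6, Grem1, Il7 and Cxcl14) summed to 7371 CPM, against 28972 CPM in Control, and the sums were 37263 CPM in NHD13Tg and 31638 CPM in WT_A1. After thinning to 2000 UMIs a cell, Adipoq was found in 23.8% of Abcg2-MDS/AML MSC-gate cells, against 94.2% in Control, and Lepr in 92.6%, against 83.1%. Esm1 was found in 21.2%, against 79.8%, so that Lepr was the gate gene found most often in Abcg2-MDS/AML.

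Fewer than 20 cells passed the chondrocyte gate in NHD13Tg (6) and WT_A1 (4) and the osteoblast gate in Abcg2-MDS/AML (8), so 17 of 20 sums entered the tests and the chondrocyte values rest on the Abcg2 pair. Differences between cell types were tested with edgeR's quasi-likelihood test with the library as a block, with Benjamini-Hochberg adjustment over all genes, and a gene was called at an adjusted p under 0.05 and at least 2-fold. Such p-values measure how far type differences vary between libraries, 2 of models and 2 of wild types. The block first takes out shifts shared by all types of a library. The spread that is left may be technical in part. Counting intervals cover counting error only. Exons of Ebf2, Ebf3 and Nr2f2 overlap a gene on the other strand in the mouse GENCODE annotation, and whether the counting used strand is not given in the sources used here.

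MSC-gate cells held more Ebf3 than every other type in every library, and Foxc1 and Foxc2 more than fibroblast- and tendon-gate cells. Ebf2 had its highest mean level in fibroblast-gate cells, and Ebf1 was high in MSC-, fibroblast- and tendon-gate cells. Prrx1 was higher in fibroblast- and tendon- than in MSC-gate cells of every library, though only narrowly in Abcg2-MDS/AML. Of the 7 members, 6 were called higher in MSC- than in osteoblast-gate cells and 0 lower, where 16.7% and 11.5% of all tested genes were called. Against chondrocyte-gate cells 5 were higher and 0 lower (16% and 14.1% of all genes). Against fibroblast-gate cells 3 were higher and 1 lower (12.9% and 9.37%), and against tendon-gate cells 4 were higher and 1 lower (12.4% and 10.6%).

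**Figure D1:**
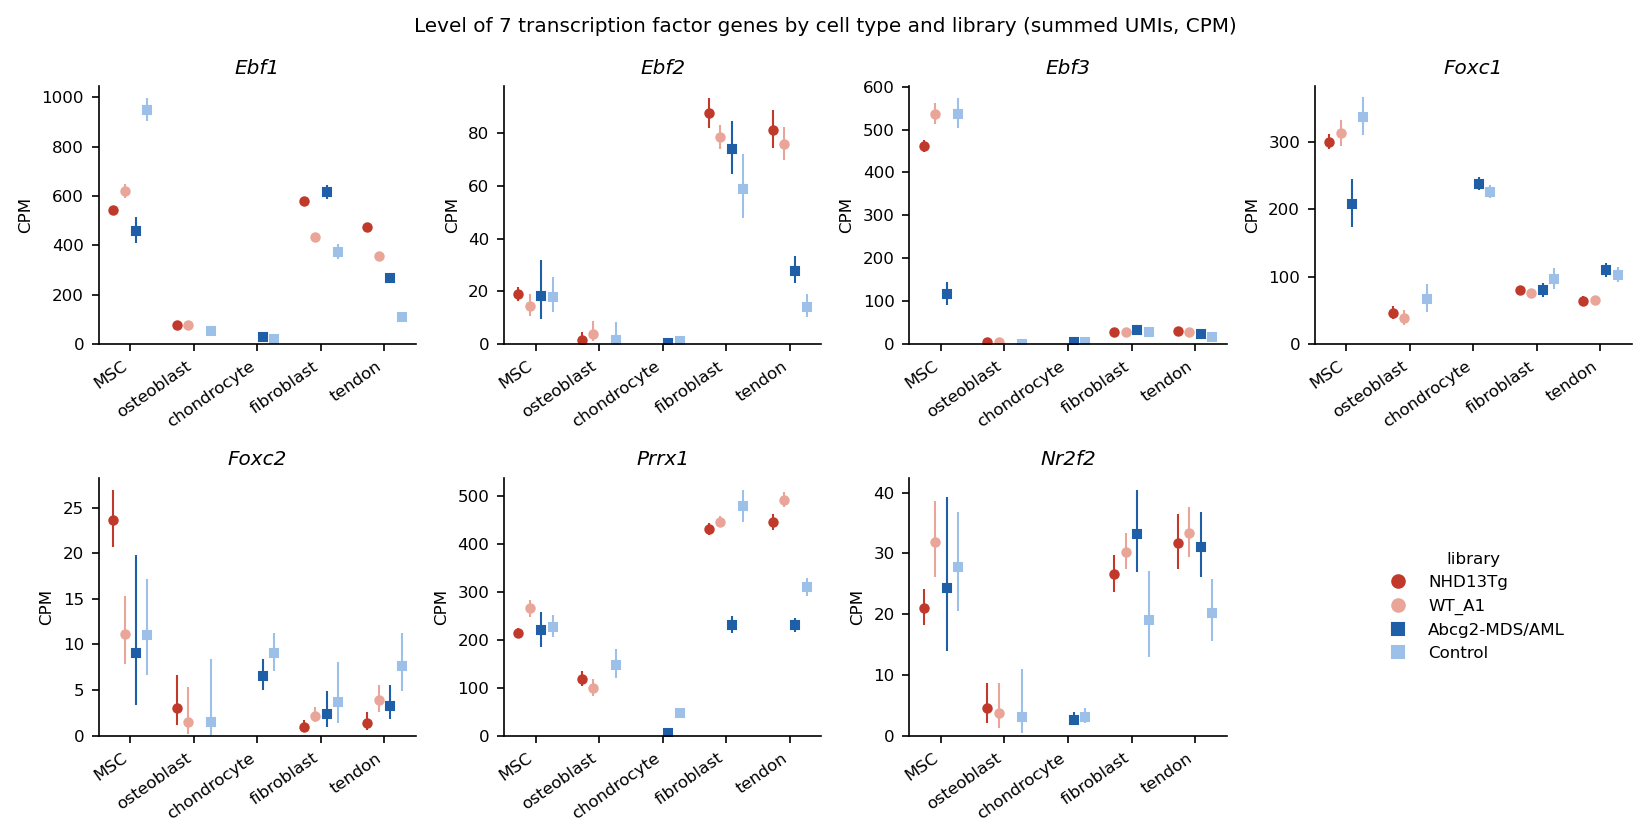
Level of each member in CPM by cell type, 1 panel a gene, with 1 point for each library and bars for 95% counting intervals. Ebf3 in MSC-gate cells lies at 117 to 537 CPM, above 27.0 to 33.9 CPM in fibroblast-gate cells, while Ebf2 lies at 14.4 to 18.8 CPM and 59.0 to 87.6 CPM.

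Ebf3, a factor of the reticular niche, had the largest difference of the 7 between MSC-gate cells and each other type. MSC-gate cells held 461 CPM in NHD13Tg against 537 CPM in WT_A1, and 117 CPM in Abcg2-MDS/AML against 537 CPM in Control. Fibroblast-gate cells held 29.1 CPM in NHD13Tg against 27.0 CPM in WT_A1, and 33.9 CPM in Abcg2-MDS/AML against 27.0 CPM in Control. Tendon-gate cells held 15.8 to 30.9 CPM and chondrocyte-gate cells 5.08 to 5.69 CPM. The lowest MSC-gate value, that of Abcg2-MDS/AML, still lay above every value in the other types, and the ranges did not overlap. The log2 difference of MSC- over fibroblast-gate cells was 3.65 ± 0.38 (SE; adjusted p 6.24e-06), over tendon-gate cells 3.83 ± 0.38 (SE; adjusted p 4.37e-06) and over chondrocyte-gate cells 5.49 ± 0.57 (SE; adjusted p 5.73e-06). It was 4.03 (adjusted p 1.90e-07) over fibroblast-gate cells within the NHD13 pair and 3.16 (adjusted p 0.0361) within the Abcg2 pair. Osteoblast-gate cells held 4.59 CPM in NHD13Tg and 5.19 CPM in WT_A1, and the fitted log2 difference from them was 6.29 ± 0.58 (SE; adjusted p 1.93e-06). In Control osteoblast-gate cells 0 of 663735 UMIs were Ebf3, which allows up to 4.52 CPM (3 counts), so its MSC-gate level there was at least 119-fold higher.

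Ebf1 was high in the 3 soft-tissue types. MSC-gate cells held 542 CPM in NHD13Tg against 619 CPM in WT_A1, and 459 CPM in Abcg2-MDS/AML against 949 CPM in Control, with a mean of 642 ± 215 CPM (SD, n = 4). Fibroblast-gate cells held 579 CPM in NHD13Tg against 432 CPM in WT_A1, and 615 CPM in Abcg2-MDS/AML against 374 CPM in Control, with a mean of 499.8 ± 116 CPM (SD, n = 4). The ranges overlapped: the MSC gate was higher in both wild-type libraries and lower in both model libraries. The log2 difference was 0.30 ± 0.32 (SE; adjusted p 0.487), and without Control it was -0.18. Tendon-gate cells held 474 CPM in NHD13Tg against 359 CPM in WT_A1, and 266 CPM in Abcg2-MDS/AML against 109 CPM in Control, below the MSC gate of the same library in all 4. The difference from tendon-gate cells was 1.05 ± 0.33 (SE; adjusted p 0.0209) and was no longer called without Control, at 0.40 (adjusted p 0.143), or without WT_A1, at 1.20 (adjusted p 0.0657). Within the NHD13 pair it was 0.36 (adjusted p 0.0868) and within the Abcg2 pair 1.78 (adjusted p 0.0856). Bone and cartilage held much less: 52.7 to 79.1 CPM in osteoblast-gate cells and 22.2 to 26.9 CPM in chondrocyte-gate cells. The log2 differences of the MSC gate from these were 2.79 (adjusted p 7.57e-05) and 4.08 (adjusted p 2.04e-05).

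Ebf2, the family member known in fat-cell precursors, was lower in MSC- than in fibroblast- and tendon-gate cells and higher than in osteoblast- and chondrocyte-gate cells. MSC-gate cells held 18.8 CPM in NHD13Tg against 14.4 CPM in WT_A1, and 18.2 CPM in Abcg2-MDS/AML against 17.9 CPM in Control. Fibroblast-gate cells held 87.6 CPM in NHD13Tg against 78.5 CPM in WT_A1, and 74.2 CPM in Abcg2-MDS/AML against 59.0 CPM in Control. No MSC-gate value reached the lowest fibroblast-gate value, and the log2 difference was -2.34 ± 0.34 (SE; adjusted p 9.98e-05), with -2.41 (adjusted p 1.62e-06) within the NHD13 pair and -1.98 (adjusted p 0.0278) within the Abcg2 pair. Tendon-gate cells held 81.3 CPM in NHD13Tg against 76.0 CPM in WT_A1, and 27.8 CPM in Abcg2-MDS/AML against 14.2 CPM in Control, so the gate was above MSC-gate cells in 3 of 4 libraries and the ranges overlapped. That difference, -1.67 ± 0.34 (SE; adjusted p 0.00138), was -2.35 (adjusted p 2.63e-06) within the NHD13 pair and -0.43 (adjusted p 0.552) within the Abcg2 pair. Osteoblast-gate cells held 1.51 to 3.71 CPM, from 1 to 5 UMIs a library, and chondrocyte-gate cells 0.541 to 1.30 CPM. The log2 difference from osteoblast-gate cells was 2.54 (adjusted p 0.00851), but 2.16 (adjusted p 0.0840) without NHD13Tg and 3.31 (adjusted p 0.0155) without WT_A1. From chondrocyte-gate cells it was 3.19 (adjusted p 0.000911), and 2.53 (adjusted p 0.0284) without Abcg2-MDS/AML.

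Foxc1, required in mice for reticular niche cells, was high in 2 of the 5 types, marrow stroma and cartilage. MSC-gate cells held 299.7 CPM in NHD13Tg against 313 CPM in WT_A1, and 207 CPM in Abcg2-MDS/AML against 337 CPM in Control. Chondrocyte-gate cells held 238 CPM in Abcg2-MDS/AML and 226 CPM in Control, inside the MSC-gate range. The log2 difference of MSC- over chondrocyte-gate cells was -0.06 ± 0.26 (SE; adjusted p 0.869), which does not show that the levels are alike, and it was positive without Abcg2-MDS/AML (0.38). Fibroblast-gate cells held 76.3 to 95.8 CPM, tendon-gate cells 64.6 to 109.6 CPM and osteoblast-gate cells 38.6 to 66.3 CPM, all below the lowest MSC-gate value. The log2 differences of MSC-gate cells from these were 1.70 ± 0.20 (SE; adjusted p 1.92e-05), 1.60 ± 0.20 (SE; adjusted p 3.45e-05) and 2.06 ± 0.24 (SE; adjusted p 1.41e-05). Within the Abcg2 pair they were 1.49 (adjusted p 0.0310) from fibroblast-gate and 1.07 (adjusted p 0.0733) from tendon-gate cells. The difference from osteoblast-gate cells there was 1.73, with the osteoblast-gate sum of Control alone. Within the NHD13 pair the differences were 1.85 (adjusted p 2.06e-06), 2.10 (adjusted p 1.50e-06) and 2.35 (adjusted p 1.68e-06) in the same order. Cartilage set itself off from the fibrous types in the same way, with a log2 difference of 1.76 ± 0.25 (SE; adjusted p 8.81e-05) over fibroblast-gate cells, where 26.2% of all genes were called in either direction, and of 1.67 ± 0.24 (SE; adjusted p 0.000143) over tendon-gate cells (23%).

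Foxc2, the lymphatic and axial-skeleton paralogue, was scarce everywhere. MSC-gate cells held 23.6 CPM in NHD13Tg against 11.1 CPM in WT_A1, and 9.08 CPM in Abcg2-MDS/AML against 11 CPM in Control, or 222, 37, 6 and 19 UMIs in that order. Fibroblast-gate cells held 0.906 to 3.69 CPM and tendon-gate cells 1.33 to 7.58 CPM. Osteoblast-gate cells held 1.48 to 3.06 CPM, and all these values lay below every MSC-gate value. NHD13Tg had the highest level of the MSC gate, and the other 3 libraries lay close together. The log2 difference from fibroblast-gate cells was 2.85 ± 0.50 (SE; adjusted p 0.000432), 1.88 (adjusted p 0.00244) without NHD13Tg and 1.56 (adjusted p 0.129) within the Abcg2 pair. From tendon-gate cells it was 1.86 ± 0.47 (SE; adjusted p 0.00569), but 0.95 (adjusted p 0.0429), under 2-fold, without NHD13Tg, 2.61 (adjusted p 0.00244) within the NHD13 pair and 0.62 (adjusted p 0.449) within the Abcg2 pair. From osteoblast-gate cells it was 2.28 ± 0.74 (SE; adjusted p 0.0225), and 2.20 (adjusted p 0.103) without WT_A1. Chondrocyte-gate cells held 6.49 to 9.01 CPM, next below the MSC gate, with a log2 difference of 0.58 ± 0.57 (SE; adjusted p 0.431) that was -0.21 within the Abcg2 pair.

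Prrx1, the limb-mesenchyme homeobox factor, was lowest in cartilage and highest in the fibrous types. MSC-gate cells held 215 CPM in NHD13Tg against 265 CPM in WT_A1, and 219 CPM in Abcg2-MDS/AML against 227 CPM in Control. Fibroblast-gate cells held 429.8 CPM in NHD13Tg against 446 CPM in WT_A1, and 231 CPM in Abcg2-MDS/AML against 477 CPM in Control. Tendon-gate cells held 445 CPM in NHD13Tg against 491 CPM in WT_A1, and 230.3 CPM in Abcg2-MDS/AML against 309 CPM in Control. In each of the 4 libraries both fibrous types lay above the MSC gate, although the ranges over libraries overlapped. In Abcg2-MDS/AML the gap was narrow, and the MSC-gate value there rests on 145 UMIs. The log2 differences of MSC-gate cells were -0.84 ± 0.28 (SE; adjusted p 0.0292) from fibroblast-gate cells and -0.82 ± 0.28 (SE; adjusted p 0.0328) from tendon-gate cells, past the p threshold and under 2-fold. Without Abcg2-MDS/AML they were -1.06 (adjusted p 0.000174) and -1.01 (adjusted p 0.000259), past both thresholds. Osteoblast-gate cells held 99.4 to 148 CPM, below the MSC gate in each of the 3 libraries, with a log2 difference of 0.70 ± 0.33 (SE; adjusted p 0.102). Chondrocyte-gate cells held 6.27 CPM in Abcg2-MDS/AML and 47.5 CPM in Control. The MSC gate exceeded these by 2.77 ± 0.41 (SE; adjusted p 0.000108), with 1.88 without Abcg2-MDS/AML and 4.10 without Control.

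Nr2f2, the nuclear receptor of veins and mesenchyme, split soft from hard tissue. MSC-gate cells held 21.0 CPM in NHD13Tg against 31.9 CPM in WT_A1, and 24.2 CPM in Abcg2-MDS/AML against 27.8 CPM in Control. Fibroblast-gate cells held 19 to 33.2 CPM and tendon-gate cells 20.2 to 33.3 CPM, both across the MSC-gate range, with log2 differences of -0.19 ± 0.17 (SE; adjusted p 0.394) and -0.34 ± 0.16 (SE; adjusted p 0.119). Osteoblast-gate cells held 3.01 to 4.59 CPM and chondrocyte-gate cells 2.60 to 3.08 CPM, below every value of the other 3 types. The MSC gate was above them by 2.18 ± 0.29 (SE; adjusted p 4.09e-05) and 2.60 ± 0.26 (SE; adjusted p 3.56e-06) on the log2 scale. Osteoblast-gate cells were below fibroblast-gate cells too, by a log2 difference of -2.37 (adjusted p 1.93e-05), where 25.5% of all genes were called.

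Ordered by mean level, neighbours were separated by a called difference only in some places. For Ebf3 the MSC gate stood first, fibroblast- and tendon-gate cells followed without a called difference between them, and chondrocyte- and osteoblast-gate cells came last. Chondrocyte-gate cells held less Ebf3 than fibroblast-gate cells, with a log2 difference of -1.84 (adjusted p 0.0109). No member was called between fibroblast- and tendon-gate cells, where 0.687% of all genes were. The cells past both gates make up 18.7% to 36.5% of the fibroblast gate. They make up 55.1% of the tendon gate in NHD13Tg, 59.5% in WT_A1, 11.3% in Abcg2-MDS/AML and 19.2% in Control. For Prrx1 the order was fibroblast and tendon, MSC, osteoblast, chondrocyte, with a log2 difference of 2.07 (adjusted p 0.00199) of osteoblast- over chondrocyte-gate cells (23.5% of all genes called). Ebf1 in osteoblast- over chondrocyte-gate cells differed by 1.29 (adjusted p 0.0595), which was not called. Scaling by total UMIs in place of the trimmed mean of M-values (TMM) shifted the median gene by 0.51 (log2) toward the MSC gate against osteoblast- and against chondrocyte-gate cells, by 0.12 against fibroblast-gate cells and by 0.18 against tendon-gate cells. The share of higher among called genes was then 82.9% against osteoblast-gate cells (59.2% with TMM) and 76.7% against chondrocyte-gate cells (53.2% with TMM). The signs of the member differences named above were kept under it except for Foxc1 against chondrocyte-gate cells (0.47).

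**Figure D2:**
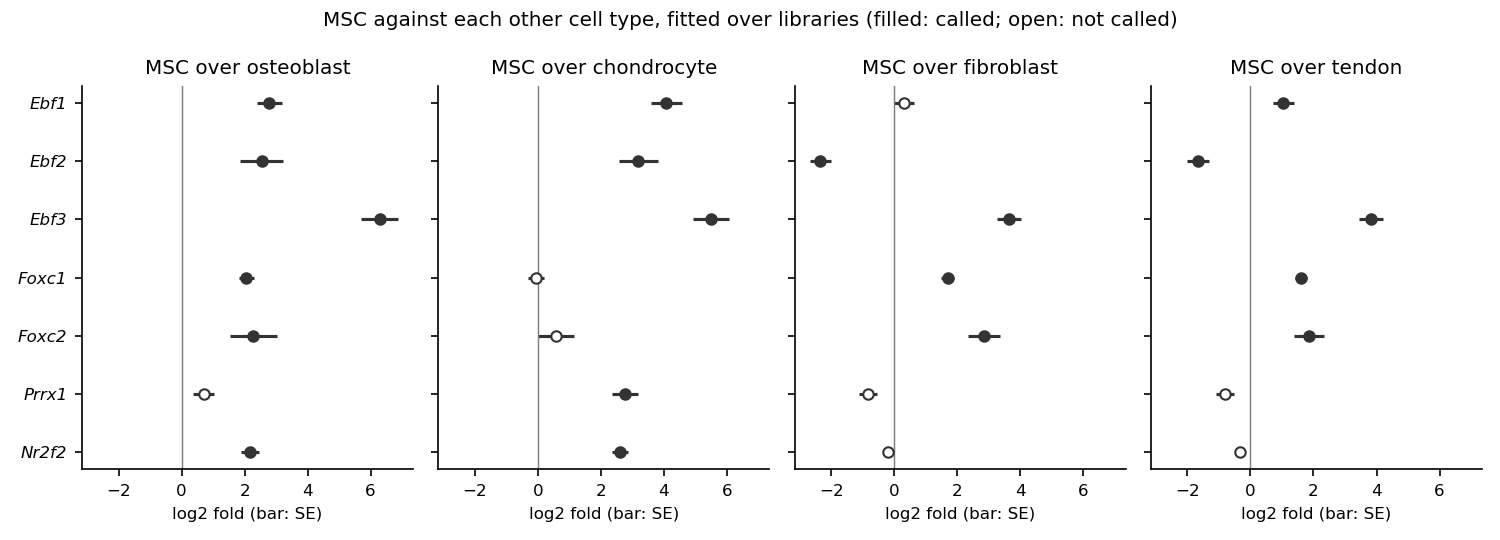
Log2 difference of MSC-gate cells over each other type for the 7 members (points, edgeR estimate; bars, ± 1 SE), with filled points where called. Ebf3 lies to the right in all comparisons, Ebf2 to the left against fibroblast-gate (-2.34) and tendon-gate cells (-1.67).

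Within the sort, Ebf3 climbed with the markers that set the MSC gate in all 4 libraries, while Prrx1 was higher in the fifth band than in the lowest in the Abcg2 pair and lower in the NHD13 pair. Cells past no other gate were placed in 6 bands by their Adipoq, Lepr and Esm1 UMIs per 10000, the gate lying at 10. From the lowest band to the highest, Ebf3 was 13.8, 41.4, 229, 339.7, 505 and 511 CPM in NHD13Tg and 12.4, 30.6, 153, 507, 589 and 617 CPM in WT_A1. In Abcg2-MDS/AML it was 13.2, 27.7, 75.9, 125, 164 and 173 CPM, with 6 cells in the highest band, and in Control 5.14, 6.04, 69.7, 299, 481 and 639 CPM. The values just outside the gate (the third of these) and just inside it (the fourth) were 229 and 339.7 CPM in NHD13Tg, and 69.7 and 299 CPM in Control. Ebf1 in Control ran 54.6, 61.0, 112, 544, 862 and 1087 CPM over the same bands, whereas in NHD13Tg it was already 378 CPM in cells with no gate UMI and 578 CPM in the highest band. Foxc1 ran 77.4 to 329.5 CPM from the lowest to the highest band in NHD13Tg, and 128 to 370.4 CPM in Control, while over the first 5 bands of Abcg2-MDS/AML it ran 185 to 225 CPM. Prrx1 was 255 CPM in the lowest and 203 CPM in the highest band of NHD13Tg, and 264 and 225 CPM in WT_A1. In Abcg2-MDS/AML it was 121, 189, 245, 199.6, 243 and 173 CPM from the lowest band to the highest (6 cells), and in Control 152, 195, 252, 285, 206 and 229 CPM.

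**Figure D3:**
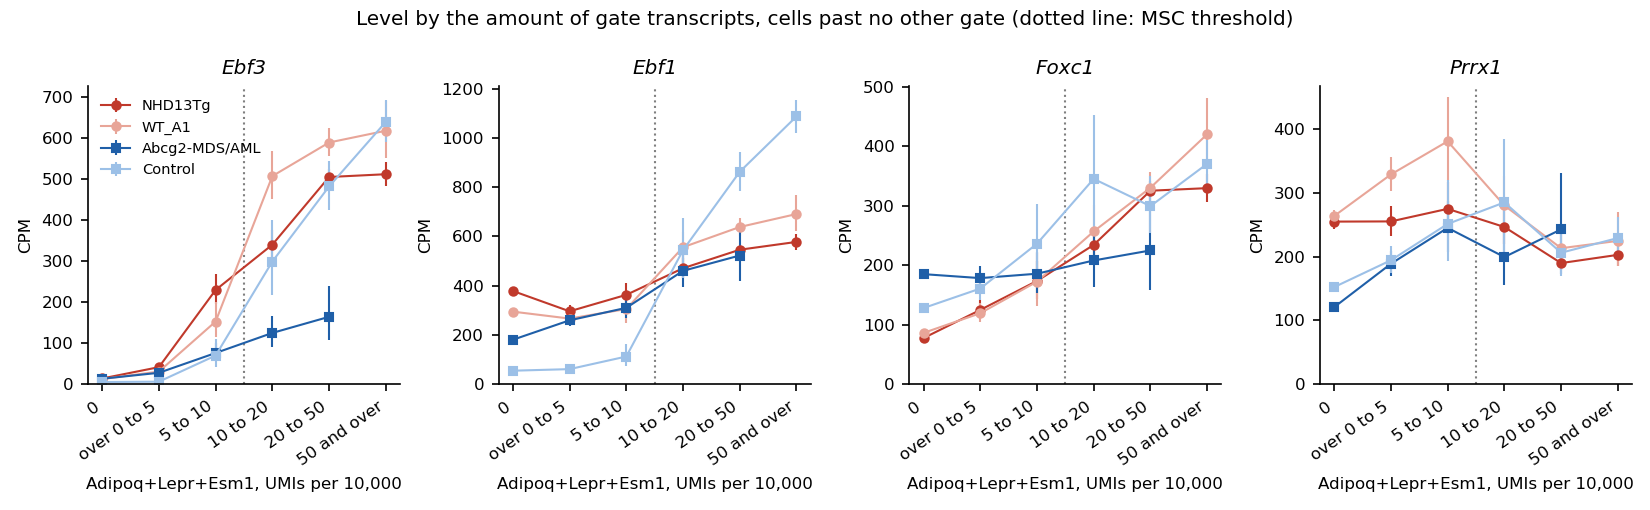
Level of members in CPM in cells past no other gate, by bands of Adipoq, Lepr and Esm1 UMIs per 10000, with 1 line a library. Ebf3 climbs over the drawn bands in each library, to 639 CPM in Control and 164 CPM in the fifth band of Abcg2-MDS/AML. Prrx1 is higher in the fifth band than in the lowest in Abcg2-MDS/AML and Control and lower in NHD13Tg and WT_A1.

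Cells past both the fibroblast and the tendon gate held the most Ebf2. They had 124 CPM in NHD13Tg against 109.8 CPM in WT_A1, and 96.7 CPM in Abcg2-MDS/AML against 60.4 CPM in Control. Cells past the fibroblast gate alone had 71.7 CPM in NHD13Tg against 63.2 CPM in WT_A1, and 70.4 CPM in Abcg2-MDS/AML against 56.1 CPM in Control, and cells past the tendon gate alone had 26.1 CPM in NHD13Tg against 28.1 CPM in WT_A1, and 18.8 CPM in Abcg2-MDS/AML against 5.57 CPM in Control. In each library the order was both, fibroblast alone, tendon alone. MSC-only cells, at 11.4 to 22.1 CPM, overlapped tendon-only cells, and with cells past more than 1 gate left out the log2 difference of the MSC gate from the tendon gate was -0.52 (adjusted p 0.211). Ebf1 in tendon-only cells was 302 CPM in NHD13Tg against 222 CPM in WT_A1, and 222 CPM in Abcg2-MDS/AML against 88.2 CPM in Control, lower than in fibroblast-only cells of the same library, which had 568 CPM in NHD13Tg against 419 CPM in WT_A1, and 619 CPM in Abcg2-MDS/AML against 414 CPM in Control.

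**Figure D4:**
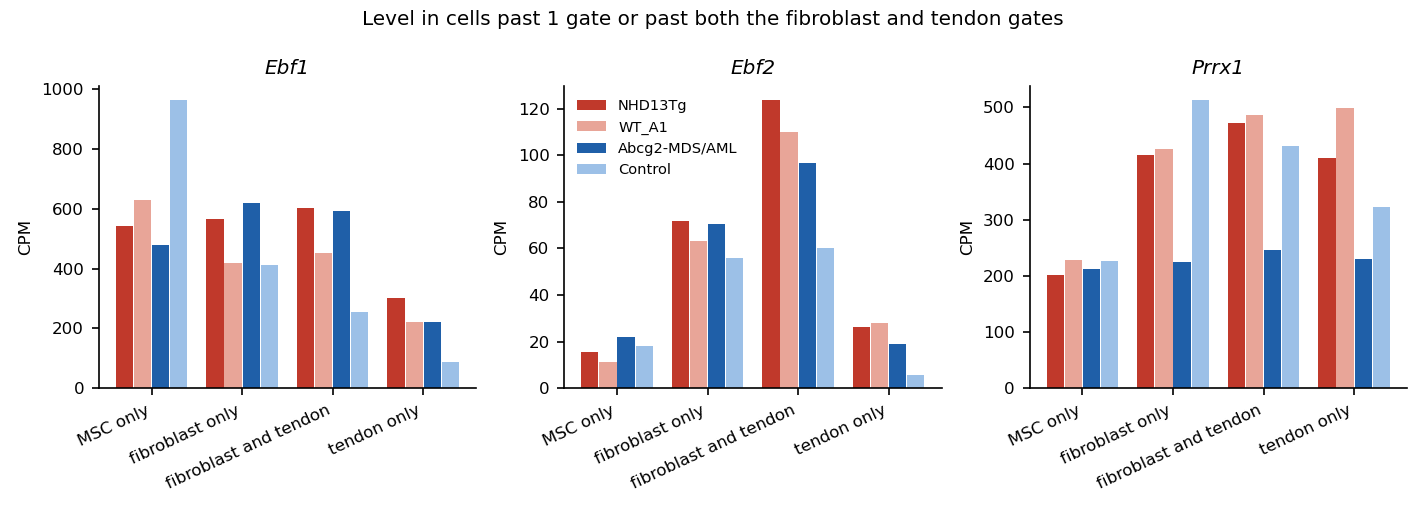
Level of Ebf1, Ebf2 and Prrx1 in CPM, with 1 bar a library. Cells are past the MSC, fibroblast or tendon gate alone, or past both the fibroblast and the tendon gate. Ebf2 is highest in cells past both the fibroblast and the tendon gate, at 60.4 to 124 CPM, against 5.57 to 28.1 CPM past the tendon gate alone.

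Detection in single cells followed the sums. After each cell was thinned to 2000 UMIs, Ebf3 was found in a share of MSC-gate cells of 55.4% in NHD13Tg, 58.2% in WT_A1, 15.9% in Abcg2-MDS/AML and 61.7% in Control, and in 4.85% to 6.44% of fibroblast-gate cells. Before thinning, the MSC-gate shares were 77.4%, 79.3%, 25.4% and 81.7%. For comparison with cells that should lack these genes, Ebf3 was found in 0.466% and Ebf1 in 0.699% of 429 haematopoietic cells of Control (thinned), whose median depth was 24629 UMIs, against 3583 UMIs in Control MSC-gate cells. These shares are of Control alone and of deeper cells, and such cells were too few in the other 3 libraries for a share. Ebf1 was found in a thinned share of MSC-gate cells of 62.2% in NHD13Tg, 66.6% in WT_A1, 56.1% in Abcg2-MDS/AML and 80.5% in Control, and Foxc1 in 42.8% in NHD13Tg, 43.1% in WT_A1, 32.3% in Abcg2-MDS/AML and 49.7% in Control. Ebf2, Foxc2 and Nr2f2 were seen in a small minority: Ebf2 in 2.45% to 4.23%, Foxc2 in 2.12% to 4.05% and Nr2f2 in 2.89% to 6.92% of MSC-gate cells. After thinning, 0 of the 429 haematopoietic cells held a UMI of any of these 3, which allows a share of up to 0.699%. At this depth a cell without a UMI may still express the gene.

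Pooled droplets with 1 to 100 UMIs, which hold mostly free RNA, carried Ebf3 at 112 CPM in NHD13Tg against 71.4 CPM in WT_A1, and 19.1 CPM in Abcg2-MDS/AML against 22.3 CPM in Control, and Ebf2 at 21.6 CPM in NHD13Tg against 19.1 CPM in WT_A1, and 10.6 CPM in Abcg2-MDS/AML against 2.99 CPM in Control. The free level of Ebf2 exceeded its MSC-gate level in NHD13Tg and WT_A1 and lay below it in Abcg2-MDS/AML and Control. For Prrx1 the free level was 227 CPM in NHD13Tg and 240.4 CPM in WT_A1, and 86.3 CPM in Abcg2-MDS/AML and 76.8 CPM in Control. Foxc1 stood at 123 to 148 CPM in free RNA, below every MSC-gate value and above every fibroblast-, tendon- and osteoblast-gate value. Foxc2 stood at 10.8 CPM in NHD13Tg against 7.63 CPM in WT_A1, and 7.07 CPM in Abcg2-MDS/AML against 6.51 CPM in Control, below the MSC gate of the same library in all 4. Ebf1 was free at 55.6 to 285 CPM and Nr2f2 at 7.06 to 20.5 CPM. The share of free RNA in the cells was not estimated, and its part in the differences between types was not tested.

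Ebf3 was found together with Ebf1 or Foxc1 in MSC-gate cells nearly as often as their separate shares give. The observed share was somewhat above the product in NHD13Tg, WT_A1 and Control, and below it in Abcg2-MDS/AML. Ebf1 and Ebf3 were both seen, in thinned cells, in 36.1% of cells in NHD13Tg, 40.2% in WT_A1, 8.47% in Abcg2-MDS/AML and 51.5% in Control. The products of their shares were 34.4%, 38.8%, 8.90% and 49.7%. Ebf3 and Foxc1 were both seen in 26.3% of NHD13Tg cells, where the product was 23.7%, and in 27.7% of WT_A1 cells, where it was 25.1%. For Control the values were 33.2% and 30.6%, and for Abcg2-MDS/AML 3.70% (7 cells) and 5.12%. The cell with the most Ebf1 UMIs held 0.589% of them in NHD13Tg and 2.97% in Abcg2-MDS/AML, and that with the most Ebf3 UMIs 0.370% in NHD13Tg and 7.79% of 77 UMIs in Abcg2-MDS/AML. For Foxc2 in Abcg2-MDS/AML, all 6 UMIs lay in 4 of the 189 cells.

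Genes known from the surroundings of these factors were read from 6 lists. Of 18 niche and reticular genes, all tested, 14 were higher in MSC- than in fibroblast-gate cells and 0 lower, with a median log2 difference of 2.68 against 0.00 over all genes tested. Cxcl12, the chemokine that holds stem cells in marrow, differed by 3.26, Hp (haptoglobin) by 6.30, the adhesion molecule Vcam1 by 3.92 and Cxcl14 by 1.90, while Gas6 (1.05) and Pdgfra (-0.16) were not called. Of 11 tested adipogenic genes of 14 listed, 8 were higher in MSC-gate cells and 0 lower (median 1.93), where 12.9% and 9.37% of all genes tested were higher and lower. Higher list members included Apoe (3.00), the fat regulators Cebpa (3.23) and Cebpb (1.86), and the lipase Lpl (2.85). Osteogenic genes went both ways against fibroblast-gate cells, 8 of 16 higher and 4 lower beside the same shares of all genes, with Ibsp (3.29) and Spp1 (3.30) higher and the collagens Col1a1 (-2.21) and Col1a2 (-1.25) lower. Against osteoblast-gate cells 12 of the 16 were lower in MSC-gate cells and 0 higher, where 11.5% and 16.7% of all genes were.

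Close relatives of the members were mixed. Of 15, 12 were tested, and against fibroblast-gate cells 3 were higher and 3 lower (median 0.21), beside 12.9% and 9.37% of all genes. The forkhead genes Foxs1 (2.76) and Foxq1 (4.56) were higher in MSC-gate cells, and Prrx2, the paralogue of Prrx1, (-3.60) and Foxd1 (-2.03) were lower. Foxp1 (-0.09) and Foxo3 (0.64) were not called. Foxq1 stood at 34.5 CPM in NHD13Tg against 23.2 CPM in WT_A1, and 0 CPM in Abcg2-MDS/AML against 6.94 CPM in Control in MSC-gate cells, where a count of 0 allows up to 4.54 CPM. Prrx2 was at 128 CPM in NHD13Tg against 161 CPM in WT_A1, and 34.6 CPM in Abcg2-MDS/AML against 127 CPM in Control in fibroblast-gate cells. Zinc-finger proteins that bind EBF factors were called against different types. Zfp521 was lower in MSC-gate cells than in fibroblast- (-1.07) and tendon-gate cells (-1.26). It was not called against osteoblast- (0.60) or chondrocyte-gate cells (0.22). Zfp423 was higher in MSC-gate cells than in osteoblast- (1.54) and chondrocyte-gate cells (2.36). It was not called against fibroblast- (0.11) or tendon-gate cells (0.55). Of 22 tested mesenchymal transcription factors of 23, 3 were higher than in fibroblast-gate cells, namely Runx1 (1.51), Zeb2 (1.65) and Snai2 (1.68), and 6 were lower, among them Nfix (-1.14), where 12.9% of all genes were higher and 9.37% lower.

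By Pearson correlation of log2(CPM + 5) over the 17 sums, among 7920 genes of at least 20 CPM in 1 of them, the genes most like Ebf3 were 1500009L16Rik (0.977), Ptger4 (0.976) and Plxnd1 (0.975). Those most like Foxc1 were Slc5a3 (0.972), Btg1 (0.966) and Plagl1 (0.964), and those most like Foxc2 were Tnfrsf21 (0.911), Adipor2 (0.904) and Rfx7 (0.887). Plxnd1 held 49.9 to 85.7 CPM in MSC-gate and 9.33 to 14.9 CPM in fibroblast-gate cells, and Slc5a3, an inositol transporter, shared Foxc1's high level in cartilage, at 170.4 to 176 CPM there and 43.1 to 59.7 CPM in tendon-gate cells. The genes most like Ebf1 were Serping1 (0.981), Ifitm3 (0.979) and Mnda (0.976). For Ebf2 they were Entpd2 (0.980), Lrrn4cl (0.976) and Sptbn1 (0.975), for Prrx1 Nt5c (0.962), Tbc1d12 (0.955) and Tmem109 (0.951) and for Nr2f2 Cdk19 (0.971), Gulp1 (0.968) and Plpp3 (0.964). Among members, Ebf1 and Nr2f2 correlated highest, at 0.912, and Foxc1 and Prrx1 lowest, at -0.280. Foxc1 and Foxc2 correlated at 0.862, and Ebf3 and Foxc1 at 0.675, which put Foxc1 at rank 1795 among the genes like Ebf3. These are descriptions over sums that share libraries, some cells and depth.

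Each model was then set against its own wild type, with 1 library a side and so no test. A ratio of CPM was taken as past the size rule at 1.5-fold or more with a 95% counting interval that leaves out 1. The counts of members take in all 7, whereas the shares of genes beside them cover genes of at least 20 CPM in 1 library of the pair, so the counts and shares rest on unlike sets. In MSC-gate cells of Abcg2-MDS/AML, 0 of 7 members were higher and 3 lower than in Control, where 12.8% and 20.8% of genes with at least 20 CPM were. In those of NHD13Tg, 1 was higher and 1 lower than in WT_A1 (4.04% and 7.2% of genes). Scaling each library by TMM shifted the median gene of the NHD13 pair in this gate by 0.12 on the log2 scale, and the share of higher among genes past the rule was 35.9% as counted and 59.5% with TMM. In the Abcg2 pair that shift was below 0.1 in this gate, 0.38 in chondrocyte-gate cells (19.6% higher as counted, 57.8% with TMM) and 0.20 in fibroblast-gate cells (30.4% and 51.3%). In osteoblast- and fibroblast-gate cells of the NHD13 pair the share was 39.0% and 32.3% as counted and 52.9% and 44.2% with TMM.

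Ebf3 in MSC-gate cells was 117 CPM in Abcg2-MDS/AML and 537 CPM in Control, a ratio of 0.217 (95% counting interval 0.170 to 0.274). Ebf1 was 459 CPM in Abcg2-MDS/AML and 949 CPM in Control, a ratio of 0.483 (95% counting interval 0.426 to 0.547), and Foxc1 was 207 CPM in Abcg2-MDS/AML and 337 CPM in Control, a ratio of 0.615 (95% counting interval 0.506 to 0.742). Abcg2-MDS/AML was the lowest of the 4 libraries for each of the 3. In the same gate the niche list was lower too, 12 of 18 genes being lower past the size rule and 0 higher. Of all genes with at least 20 CPM, 20.8% were lower and 12.8% higher. The list's median log2 ratio was -1.33, against -0.13 over all genes, and Cxcl12 was 1627 CPM in Abcg2-MDS/AML and 16621 CPM in Control. When an MSC-gate cell also had to hold at least 20 Cxcl12 UMIs per 10000, a condition chosen after seeing the data, 51 cells in Abcg2-MDS/AML and 423 in Control were left. Ebf3 was then 231 CPM in Abcg2-MDS/AML and 547 CPM in Control, a ratio of 0.423 (0.303 to 0.576), and Ebf1 567 CPM in Abcg2-MDS/AML and 960.0 CPM in Control, a ratio of 0.590 (0.479 to 0.721). Both stayed past the size rule under that condition and under each of the other 8 settings tried. Foxc1 did not when the gates were doubled, at 0.698 (0.508 to 0.939). Fewer cells of a reticular state and less RNA of the gene per cell cannot be told apart in these sums.

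Outside the MSC gate the Abcg2 pair ran differently. Ebf1 in tendon-gate cells was 266 CPM in Abcg2-MDS/AML and 109 CPM in Control, a ratio of 2.44 (95% counting interval 2.16 to 2.76), and in fibroblast-gate cells 615 CPM in Abcg2-MDS/AML and 374 CPM in Control, a ratio of 1.65 (95% counting interval 1.5 to 1.81). In cells past the tendon gate alone it was 222 CPM in Abcg2-MDS/AML and 88.2 CPM in Control, and past the fibroblast gate alone 619 CPM in Abcg2-MDS/AML and 414 CPM in Control. After thinning, the fibroblast ratio was 1.46 (1.28 to 1.67), short of the size rule, and the tendon ratio 2.08 (1.76 to 2.46). Of the 7 members, 3 were higher and 1 lower in tendon-gate cells (17.3% and 22% of genes), and 2 higher and 1 lower in fibroblast-gate cells (12.3% and 28.1%). Ebf2 in tendon-gate cells had a ratio of 1.96 (95% counting interval 1.38 to 2.83), and Nr2f2 1.54 (95% counting interval 1.13 to 2.11) in tendon- and 1.74 (95% counting interval 1.15 to 2.70) in fibroblast-gate cells, and each of these 3 lost the size rule in at least 1 other setting. Ebf3 in tendon-gate cells had a ratio of 1.496 (95% counting interval 1.06 to 2.14), just within 1.5-fold, and was past the size rule in 5 of 8 other settings. Cartilage and bone markers were lower in the tendon gate of Abcg2-MDS/AML, opposite in direction to these Ebf1, Ebf2 and Nr2f2 ratios. In that gate 7 cartilage markers summed to 714 CPM in Abcg2-MDS/AML and 4013 CPM in Control. The 8 osteoblast markers summed to 3602 CPM in Abcg2-MDS/AML and 11142 CPM in Control, all members of both lists above 0. Tendon markers were lower in the fibroblast gate of Abcg2-MDS/AML. There, 7 of them summed to 90.8 CPM, against 1184 CPM in Control, all above 0. The part of these markers in the ratios was not tested.

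Prrx1 was lower in Abcg2-MDS/AML than in Control in cartilage and fibroblasts. In chondrocyte-gate cells it was 6.27 CPM in Abcg2-MDS/AML and 47.5 CPM in Control, a ratio of 0.132 (95% counting interval 0.0984 to 0.174), the only member past the size rule there (0 higher and 1 lower, against 7.83% and 32% of genes). Thinned to 2000 UMIs, 1.44% of Abcg2-MDS/AML and 9.92% of Control chondrocyte-gate cells held it. Markers of bone and tendon moved with it in that gate: 8 osteoblast markers summed to 674 CPM in Abcg2-MDS/AML and 5190.3 CPM in Control, and 7 tendon markers to 232 CPM in Abcg2-MDS/AML and 1123 CPM in Control, with none at 0. Free RNA, at 86.3 CPM in Abcg2-MDS/AML and 76.8 CPM in Control, was nearly level between the libraries. In fibroblast-gate cells Prrx1 was 231 CPM in Abcg2-MDS/AML and 477 CPM in Control, a ratio of 0.483 (95% counting interval 0.435 to 0.536), with the tendon-marker sums given above. The part of these markers was not tested. Both Prrx1 ratios stayed past the size rule in all 8 other settings, TMM scaling included, which gave 0.172 (0.128 to 0.227) in chondrocyte-gate and 0.556 (0.501 to 0.617) in fibroblast-gate cells. In MSC-gate cells Prrx1 had a ratio of 0.967 (95% counting interval 0.794 to 1.17), with an interval on both sides of 1.

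The NHD13 pair moved little. Foxc2 in MSC-gate cells was 23.6 CPM in NHD13Tg and 11.1 CPM in WT_A1, from 222 and 37 UMIs, a ratio of 2.12 (95% counting interval 1.49 to 3.1) that stayed past the size rule in all 9 other settings. In fibroblast- and tendon-gate cells Foxc2 was lower, with ratios of 0.415 (95% counting interval 0.181 to 0.873) and 0.340 (95% counting interval 0.135 to 0.759) from 10 and 8 UMIs in NHD13Tg, against 30 in each gate of WT_A1. These gates share cells, so the ratios are not independent, and after thinning the fibroblast ratio was 0.936 (0.186 to 4.35). Nr2f2 in MSC-gate cells was 21.0 CPM in NHD13Tg and 31.9 CPM in WT_A1, a ratio of 0.658 (95% counting interval 0.517 to 0.841), kept in 3 of 9 other settings and 0.714 (0.561 to 0.913) under TMM scaling. Ebf1, Ebf3, Foxc1 and Prrx1 had MSC-gate ratios of 0.875, 0.858, 0.958 and 0.811, within 1.5-fold. In osteoblast-gate cells 0 members passed in either direction (4.6% and 7.21% of genes), where Ebf2, Ebf3, Foxc2 and Nr2f2 lay at 1.48 to 5.19 CPM, below the 20 CPM of the genes counted, and in fibroblast- (1.27% and 2.66%) and tendon-gate cells (1.66% and 3.19%) 0 were higher and Foxc2 alone was lower. Foxc2 in Abcg2-MDS/AML tendon-gate cells had a ratio of 0.432 (95% counting interval 0.207 to 0.870) over Control, lost after thinning.

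**Figure D5:**
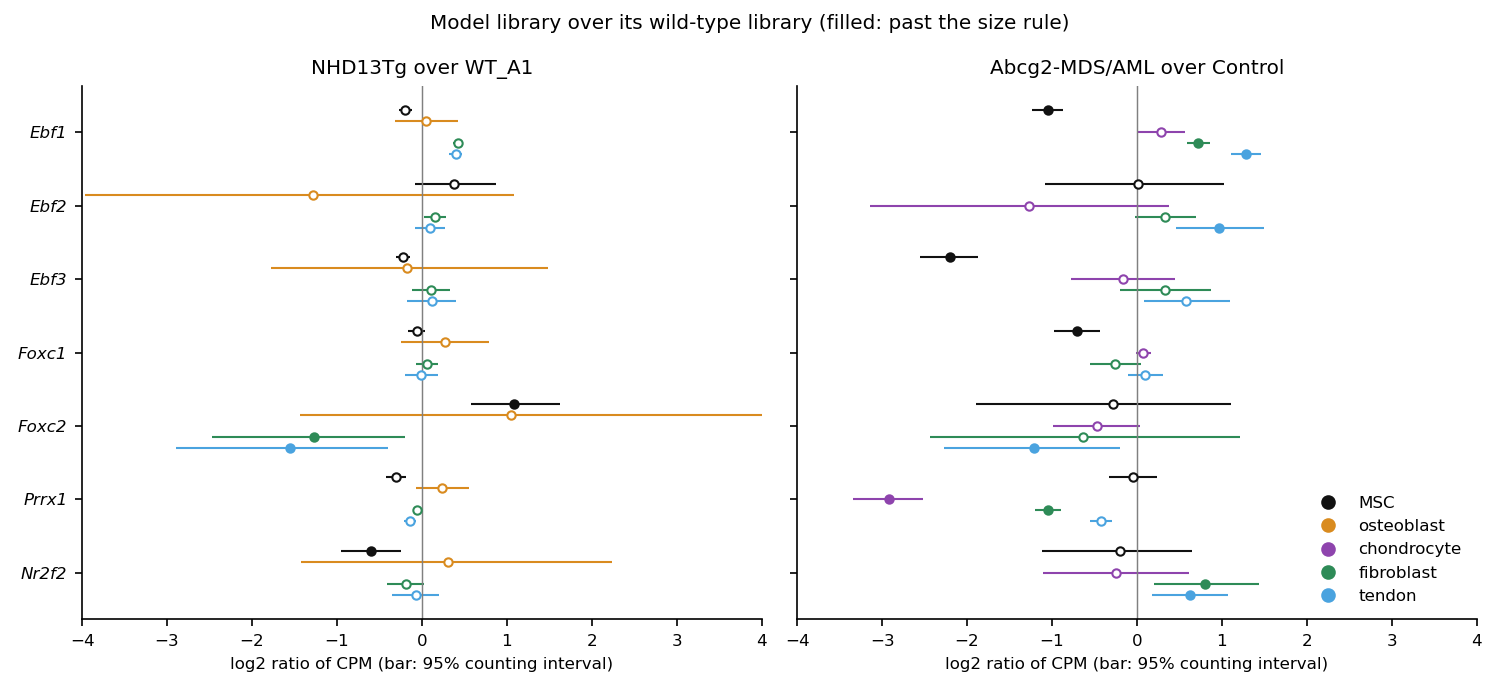
Ratio of CPM of each model over its wild type (log axis) for the 7 members by cell type, with bars for 95% counting intervals and filled points past the size rule. In the Abcg2 pair Ebf1 lies at 0.483 in MSC-gate cells and at 1.65 and 2.44 in fibroblast- and tendon-gate cells, and Prrx1 lies at 0.132 in chondrocyte-gate cells.

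A change shared by both models was tested with edgeR's quasi-likelihood test with the pair as a block, which leaves 1 residual degree of freedom a cell type. In MSC-gate cells 0 of 10444 genes were called at an adjusted p under 0.05 (0%), with 440 at an unadjusted p under 0.05 and 18 called by DESeq2, in fibroblast-gate cells 1 of 11669 (0.00857%; 580 and 13), and in tendon-gate cells 0 of 11317 (0%; 474 and 4). None of the 7 members was among those edgeR called. The lowest unadjusted p-values of members were those of Foxc2 in tendon-gate cells, with a log2 difference of -1.31 ± 0.45 (SE), lower in both pairs, and of Ebf1 in tendon-gate cells, with 0.89 ± 0.34 (SE), higher in both pairs. Their adjusted p-values were both 0.878. In MSC-gate cells Ebf3 differed by -1.09 ± 0.50 (SE; adjusted p 0.997), beside pair ratios of 0.217 in the Abcg2 and 0.858 in the NHD13 pair.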

How the data were processed

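Single-cell RNA of 4 libraries was analysed, 1 each of NHD13Tg, WT_A1, Abcg2-MDS/AML and Control. The deposited values are raw UMI counts per gene and barcode with no normalization, per the file headers, made with Cell Ranger 3.1.0 from 3′ droplet libraries; Seurat 3.2.3 is also named in the submitters' processing notes. Neither the genome build nor the annotation used for counting is given in the sources used here. The members, gene lists and tests were chosen with earlier results of these data known.

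Barcodes with at least 2000 UMIs, at least 500 genes and at most 10% mitochondrial UMIs were kept and put in types by the marker gates. No doublet caller was run; leaving out the 5% of cells with most UMIs in each library, and cells past more than 1 gate, were alternatives. Counts were summed per type and library, and 17 of 20 sums held at least 20 cells. Type differences were fitted in one model with edgeR 4.0.16 (glmQLFit, glmQLFTest, TMM, filterByExpr) with the library as a block, and adjusted by Benjamini-Hochberg over 12374 genes within each contrast; SEs were taken from the fold change and its F statistic. The joint test of both models used the same tool per type, with the pair as a block. Ratios of 1 library to 1 library carry conditional exact binomial intervals at 95%. Intervals of levels are exact Poisson. For shares of positive cells each cell was thinned to 2000 UMIs with a fixed seed. Haematopoietic cells held at least 6 UMIs per 10000 of Ptprc, Coro1a, Laptm5, Tyrobp, Car1 and Gata1, passed no gate and held no UMI of a B-lineage marker list, which is not reported here. The fits and the ratio rule were tested on simulated data. Alternatives were other UMI minimums (1000 and 4000), doubled gates, other scalings, no filter on low counts, DESeq2 1.42.0, no block, each library left out, each pair alone and, added after the data were seen, a Cxcl12 condition on the MSC gate.

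Named are the 7 members, for each member the 3 genes of highest correlation over the sums (gate genes left out; 17 sums were used in place of the 20 planned, since 3 held too few cells), and for each list up to 4 called and 2 uncalled genes with the highest mean level in MSC-gate cells. Analyses ran in R 4.3.3 and Python 3.11.15.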

Additional observations from a re-analysis of the deposited data

Results flagged for a closer look

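In the Abcg2 pair Ebf1 moved one way in marrow stroma and the other way in the fibrous types. Its ratio of Abcg2-MDS/AML over Control was 0.483 in MSC-gate cells, against 1.65 in fibroblast-gate and 2.44 in tendon-gate cells. The 3 values were singled out because the single library of each group gives opposite directions in different cell types. The difference between the types was not tested, since each ratio sets 1 library against 1 library.

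In the NHD13 pair Foxc2 did likewise. Its ratio of NHD13Tg over WT_A1 was 2.12 in MSC-gate cells, against 0.415 in fibroblast-gate and 0.340 in tendon-gate cells, and this difference was not tested either. The fibroblast- and tendon-gate values rest on 10 and 8 UMIs in NHD13Tg and on 30 UMIs in each gate of WT_A1, and the gates share cells.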

How the results depend on the processing

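Each group has 1 library, 3 sums held under 20 cells, and Foxc2 rests on 6 to 222 UMIs in MSC-gate cells, which limits the precision of its values. Of the member differences between types refitted under other settings, 487 kept their direction and side of the thresholds, 25 lost the call, 7 gained it and 6 changed sign. Of the pair ratios, 372 moved by less than their counting interval and 42 by more, and of the joint values 144 kept direction and side and 1 changed sign.

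Against osteoblast-gate cells, the log2 difference of MSC-gate cells was 1.75 for Ebf2 and 1.69 for Foxc2 without the 5% of cells with most UMIs. After thinning it was 1.76, 1.47 and 1.44 for Ebf2, Foxc2 and Nr2f2. None of these had an adjusted p under 0.05. Within the Abcg2 pair, where only Control had an osteoblast-gate sum, it was 3.26, 3.06, 1.73, 2.57 and 2.61 for Ebf1, Ebf2, Foxc1, Foxc2 and Nr2f2. Prrx1 reached 1.21 and was called with total UMIs as the scale. Against tendon-gate cells, Ebf1 was not called without the library block (0.90), without the filter on low counts (0.999), after thinning (0.92), within the Abcg2 pair (1.78) or within the NHD13 pair (0.36). Ebf2 was not called without cells past more than 1 gate (-0.52) or within the Abcg2 pair (-0.43), nor were Foxc1 (1.07) and Foxc2 (0.62) within that pair, or Foxc2 against fibroblast-gate cells there (1.56). Prrx1 was called lower than in fibroblast-gate cells with the Cxcl12 condition (-1.01) and doubled gates (-1.03), and lower than in tendon-gate cells with doubled gates (-1.02) and within the NHD13 pair (-1.11).

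Signs changed for Foxc1 against chondrocyte-gate cells after thinning (0.13), with total UMIs (0.47) and without Abcg2-MDS/AML (0.38), for Foxc2 against them within the Abcg2 pair (-0.21) and without NHD13Tg (-0.00374), for Ebf1 against fibroblast-gate cells without Control (-0.18), and for Foxc1 in the joint fibroblast test without cells past more than 1 gate (-0.0238). Leaving out each library in turn gave ranges of 0.40 to 1.38 for Ebf1 and 0.95 to 2.39 for Foxc2 against tendon-gate cells, 2.16 to 3.31 for Ebf2 and 2.20 to 2.43 for Foxc2 against osteoblast-gate cells, -1.06 to -0.74 and -1.01 to -0.70 for Prrx1 against fibroblast- and tendon-gate cells, -0.31 to 0.38 for Foxc1 and -0.00374 to 0.79 for Foxc2 against chondrocyte-gate cells, and -0.18 to 0.58 for Ebf1 against fibroblast-gate cells. The causes were not tested.

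Over all genes, calls between MSC- and osteoblast-gate cells numbered 3499 in the fit reported, 1977 after thinning and 371 within the Abcg2 pair, against fibroblast-gate cells 2759 and within the Abcg2 pair 619, and against tendon-gate cells 2845 and within that pair 693. Genes past the size rule in NHD13Tg over WT_A1 MSC-gate cells numbered 693 at a background of 20 CPM and 1408 at 5 CPM. In the joint test, calls were 0 in MSC-, 1 in fibroblast- and 0 in tendon-gate cells as reported. MSC-gate calls were 18 with DESeq2, 29 with the Cxcl12 condition and 146 with no filter on low counts. Fibroblast-gate calls were 13 with DESeq2, 2 with relative log expression factors, 4 at a minimum of 4000 UMIs, 4 without cells past more than 1 gate, 112 with no filter and 0 without the pair block, and tendon-gate calls 4 with DESeq2 and 29 with no filter. Leaving out a library was not possible in the joint test, which then has no residual degrees of freedom.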
